A study of Mus musculus with 2 samples.

Results

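The aminoacyl-tRNA synthetases attach each amino acid to its tRNA and so supply the ribosome with charged tRNA. The gene names of the deposited tables were searched for the mouse synthetase symbols and for the scaffold proteins Aimp1 and Aimp2, and 39 of 26082 genes were found. Of these, 18 were classed as cytosolic enzymes, 17 as mitochondrial enzymes (symbols ending in 2), 2 as genes shared by both compartments (Gars and Kars) and 2 as scaffold proteins. No measured value was used to choose them.

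Primary fibro-adipogenic progenitors (FAPs), the muscle-resident cells that can turn into adipocytes, were transfected with plasmids that overexpress TGFBR3, a co-receptor for TGF-β, or with the vector. Both cultures had the WT genotype and were placed under adipogenic differentiation in DMEM that held insulin at 10 μg/ml, dexamethasone at 0.25 μM, IBMX at 0.5 mM and serum (FBS) at 20%. The labels give neither the age of the donor mice nor the hour of collection. The comparison asks how the transcriptome differs when the plasmid carries TGFBR3. Each group had 1 library, so differences could not be checked against replicates and no test was made. The 95% intervals beside the log2 ratios come from the exact Clopper-Pearson interval of how a gene's counts divide between the libraries. They hold counting error alone, and what they compare is a pair of libraries rather than the conditions.

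In the cytosol, some synthetases act as separate enzymes, whereas others join the scaffold proteins in the multisynthetase complex. Nuclear genes encode a second, mitochondrial set that serves the translation of mitochondrially encoded respiratory chain subunits. Many cytosolic synthetase genes are known targets of ATF4, the transcription factor of the amino acid response, and Wars is also known to be induced by interferon-γ.

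Throughout, the first of paired values is from the library labelled TGFBR3 overexpression and the second from the library labelled vector control. Total counts were 62321027 and 83779203. Tgfbr3 itself had 36.9 and 35.1 FPKM, with 16372 and 21245 counts and a log2 ratio of 0.07 (0.04 to 0.10), so it was not raised beyond the median gene and the libraries are named by their labels. FPKM is the count scaled by transcript length and by a library total, and every log2 ratio is of (FPKM + 1), with the vector control as denominator. A minimum mean FPKM of 1 was required for summaries, which left 11213 genes with a median log2 ratio of 0.14. Of the 5 FAP markers, Pdgfra had 30.5 and 32.6 FPKM, Ly6a 1013 and 706 FPKM and Cd34 20.6 and 25.7 FPKM. Their median log2 ratio was -0.08, with 2 above 0, and Cd34 was the lowest at -0.30. The 4 adipocyte markers summed to 34.8 and 68.0 FPKM, with log2 ratios from -1.29 for Cfd to -0.14 for Fabp4. The part of adipocytes in the synthetase values was not tested. The 10 macrophage, endothelial and muscle markers in the tables were each under 1 FPKM in both libraries, and Pax7 and Myod1 were not analysed here. In bulk samples, fewer cells of a type and less RNA per cell cannot be told apart.

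The promoters of members that hold the C/EBP-ATF response element, the sequence through which ATF4 is known to act, are shown first because the genes are divided below by what is known of ATF4. RefSeq promoter windows on GRCm38.p6 (mm10), 250 bases before to 50 bases after the start site, were matched by Entrez gene identifier for 29 members. The letters TGATGNAA on either strand were found in 5 of them (17.2%) and in 1219 of 27025 genes with a window (4.51%). The 5 members were Aars, Gars, Iars, Tars and Yars. The capitals mark the match, read on the strand of the gene, where it stands as the reverse complement. The Gars window is chr6:55037960-55037989 on the plus strand and the Tars window is chr15:11399659-11399688 on the minus strand.
Gars: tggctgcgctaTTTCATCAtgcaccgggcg
Tars: gggccaggagtcccgTTGCATCAgctggtt
The match lay 30 to 23 bases before the start site in Gars and 15 to 8 bases before it in Tars. The log2 ratios of the 5 genes were -0.01 for Gars, 0.15 for Yars, 0.23 for Aars, 0.51 for Tars and 0.55 for Iars. Gars is classed as shared, and the cytosolic genes ranged from -0.46 to 1.06, so no match was at either end of their range. Nars, Rars and Lars, among the highest cytosolic genes, had no matched window. A match is a description of the letters and not a site. The members without a matched window included Cars, Hars, Hars2, Lars, Nars, Pars2, Rars, Vars and Wars.

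Across the members, cytosolic synthetases were mostly higher in the library labelled TGFBR3 overexpression, while mitochondrial synthetases lay on both sides of the median gene. The median log2 ratio was 0.40 over the 18 cytosolic enzymes and 0.06 over the 15 mitochondrial enzymes that passed the filter, against 0.14 over all genes tested. Of the 37 members tested, 30 had a log2 ratio above 0, where 63.1% of all genes tested did. By class, this held for 16 of 18 cytosolic and 11 of 15 mitochondrial enzymes. Relative to the shift of 0.13 shown by the median of 10626 genes with at least 1 FPKM in both libraries, 15 of 18 cytosolic enzymes and 5 of 15 mitochondrial enzymes lay above it, where 51.3% of all genes tested did. Nars2 and Mars2 were under the filter, with 0.81 and 0.59 FPKM and 0.82 and 0.58 FPKM, and log2 ratios of 0.19 and 0.20. Without the pseudocount their log2 ratios were 0.46 and 0.50.

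Few members passed a 2-fold difference. Dars was the only member at least 2-fold higher, where 3.14% of all genes tested were, and Lars2 was the only member at least 2-fold lower, where 1.03% were. At 1.5-fold, 6 of 37 members were higher (16.2%), beside 13.3% of all genes tested, and Lars2 alone was lower, beside 4.91%. These shares over all members were near the background. The cytosolic enzymes past 1.5-fold numbered 5 of 18 (27.8%), namely Dars, Nars, Rars, Farsb and Lars, and the other member was Kars. With the trend over exon GC content removed, as described below, only Dars (0.61) and Nars (0.70) of these genes stayed past 1.5-fold. Rars and Farsb were then at 0.56, Kars at 0.51 and Lars at 0.38.

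The summed FPKM of the 18 cytosolic enzymes was 538 and 388, a ratio of 1.39. For all 17 mitochondrial enzymes it was 48.9 and 53.2, a ratio of 0.921. Without Lars2 the mitochondrial sums were 45.3 and 40.6, a ratio of 1.11, so the lower mitochondrial sum rested on that gene.

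**Figure D1:**
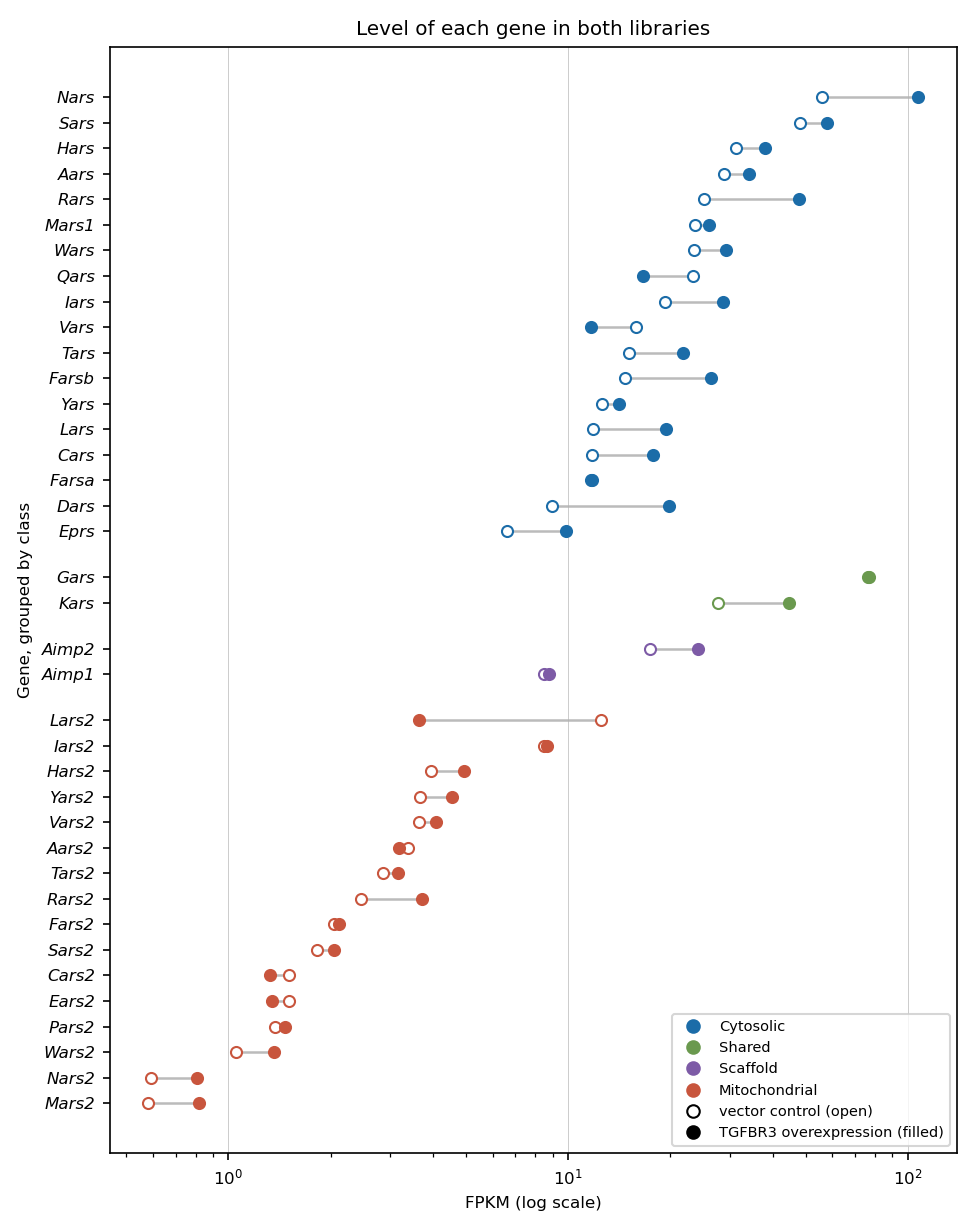
FPKM of 38 of the 39 members on a log axis, with an open circle for the library labelled vector control and a filled circle for the library labelled TGFBR3 overexpression, grouped by class and ordered by the level in the vector control. Cytosolic enzymes lay between 6.59 and 108 FPKM in the 2 libraries, while mitochondrial enzymes lay between 0.58 and 12.5 FPKM.

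Dars, the cytosolic aspartyl-tRNA synthetase of the multisynthetase complex, had 19.8 and 8.96 FPKM, from 5847 and 3608 counts. It rose by 1.06 on the log2 scale (1.005 to 1.12), a plain FPKM ratio of 2.21. The gene (ENSMUSG00000026356) lies at chr1:128363707-128417368 on the minus strand. Its exons have a low GC content of 39.6%, and its log2 ratio was 0.61 after removal of the GC trend (the median log2 ratio of all genes in 20 bins of exon GC content) and 0.93 when centred on the median gene, both under 2-fold. The difference was thus in the same direction under each scaling, and its place past 2-fold was not kept.

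Nars, the asparaginyl-tRNA synthetase, was the most abundant member in the library labelled TGFBR3 overexpression. It had 108 and 55.8 FPKM, from 31764 and 22446 counts, with a log2 ratio of 0.93 (0.91 to 0.96). The gene (ENSMUSG00000024587) lies at chr18:64499647-64516652 on the minus strand. In the vector control the most abundant member was Gars instead, so the order of these genes exchanged between the libraries. Rars, the arginyl-tRNA synthetase, had 47.9 and 25.2 FPKM, from 10489 and 7517 counts, and a log2 ratio of 0.90 (0.86 to 0.94). The gene (ENSMUSG00000018848) lies at chr11:35808381-35834506 on the minus strand. Nars and Rars were both nearly doubled and stayed just under the 2-fold threshold. After removal of the GC trend, their log2 ratios were 0.70 and 0.56.

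The phenylalanyl-tRNA synthetase of the cytosol is built of α subunits encoded by Farsa and β subunits encoded by Farsb. Farsb had 26.3 and 14.7 FPKM, from 4683 and 3572 counts, and a log2 ratio of 0.80 (0.74 to 0.86). The gene (ENSMUSG00000026245) lies at chr1:78417975-78488897 on the minus strand. Farsa had 11.8 and 11.7 FPKM, from 3623 and 4886 counts, and a log2 ratio of 0.01 (-0.04 to 0.07). The transcripts of the subunits therefore differed in their ratio by more than counting error. After removal of the GC trend, the log2 ratios were 0.56 for Farsb and -0.06 for Farsa, so the gap between them was also seen there.

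Lars, the leucyl-tRNA synthetase known as a leucine sensor of the mTORC1 pathway, had 19.4 and 11.8 FPKM, from 7077 and 5876 counts. Its log2 ratio was 0.67 (0.62 to 0.72). Kars, whose transcripts encode both the cytosolic and the mitochondrial lysyl-tRNA synthetase, had 44.6 and 27.7 FPKM, from 13497 and 11417 counts, and a log2 ratio of 0.67 (0.63 to 0.70). Lars (ENSMUSG00000024493) lies at chr18:42202298-42262194 and Kars (ENSMUSG00000031948) at chr8:111993443-112011323, both on the minus strand. Gars, the glycyl-tRNA synthetase that likewise serves both compartments, had 76.4 and 76.7 FPKM, from 16172 and 22113 counts, and a log2 ratio of -0.01 (-0.03 to 0.02). The gene (ENSMUSG00000029777) lies at chr6:55038007-55079500 on the plus strand. The shared genes thus did not move together, and the interval of Gars included 0. Centred on the median gene, Gars was at -0.13, and after removal of the GC trend at -0.16.

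A middle group of cytosolic enzymes was higher by less than 1.5-fold on the (FPKM + 1) scale. Cars, the cysteinyl-tRNA synthetase, had 17.8 and 11.8 FPKM and a log2 ratio of 0.56 (0.51 to 0.60). Iars, the isoleucyl-tRNA synthetase, had 28.5 and 19.2 FPKM and a log2 ratio of 0.55 (0.51 to 0.58). Eprs, a single protein with both glutamyl- and prolyl-tRNA synthetase activity, was the lowest cytosolic member in the vector control, at 6.59 FPKM against 9.87 FPKM, with a log2 ratio of 0.52. These genes, together with Tars at 0.51 (21.8 and 15.1 FPKM), formed a step between 0.51 and 0.56 in which the intervals of neighbours overlapped. Below that step came Wars, Hars, Sars and Aars, between 0.23 and 0.30, and then Yars and Mars1, at 0.15 and 0.13, which lay at the level of the median gene. Mars1, the methionyl-tRNA synthetase, shares 68 exon bases on the opposite strand with Ddit3, which had 116 and 17.5 FPKM, and although the libraries were stranded, whether the counting used the strand is not given in the sources used here.

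The lower cytosolic enzymes were Vars and Qars. Vars, the valyl-tRNA synthetase, had 11.7 and 15.8 FPKM, from 4452 and 8211 counts, and a log2 ratio of -0.41 (-0.46 to -0.36). It lies at chr17:35000987-35016322 on the plus strand (ENSMUSG00000007029). Its exons have the highest GC content of the members, 60.3%, and its log2 ratio was -0.16 after removal of the GC trend. Qars, the glutaminyl-tRNA synthetase of the multisynthetase complex, had 16.7 and 23.3 FPKM, from 7436 and 14177 counts, and a log2 ratio of -0.46 (-0.50 to -0.42). It lies at chr9:108507706-108515941 on the plus strand (ENSMUSG00000032604). Qars has an exon GC content of 48.9%, and with the trend removed its log2 ratio was -0.62.

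**Figure D2:**
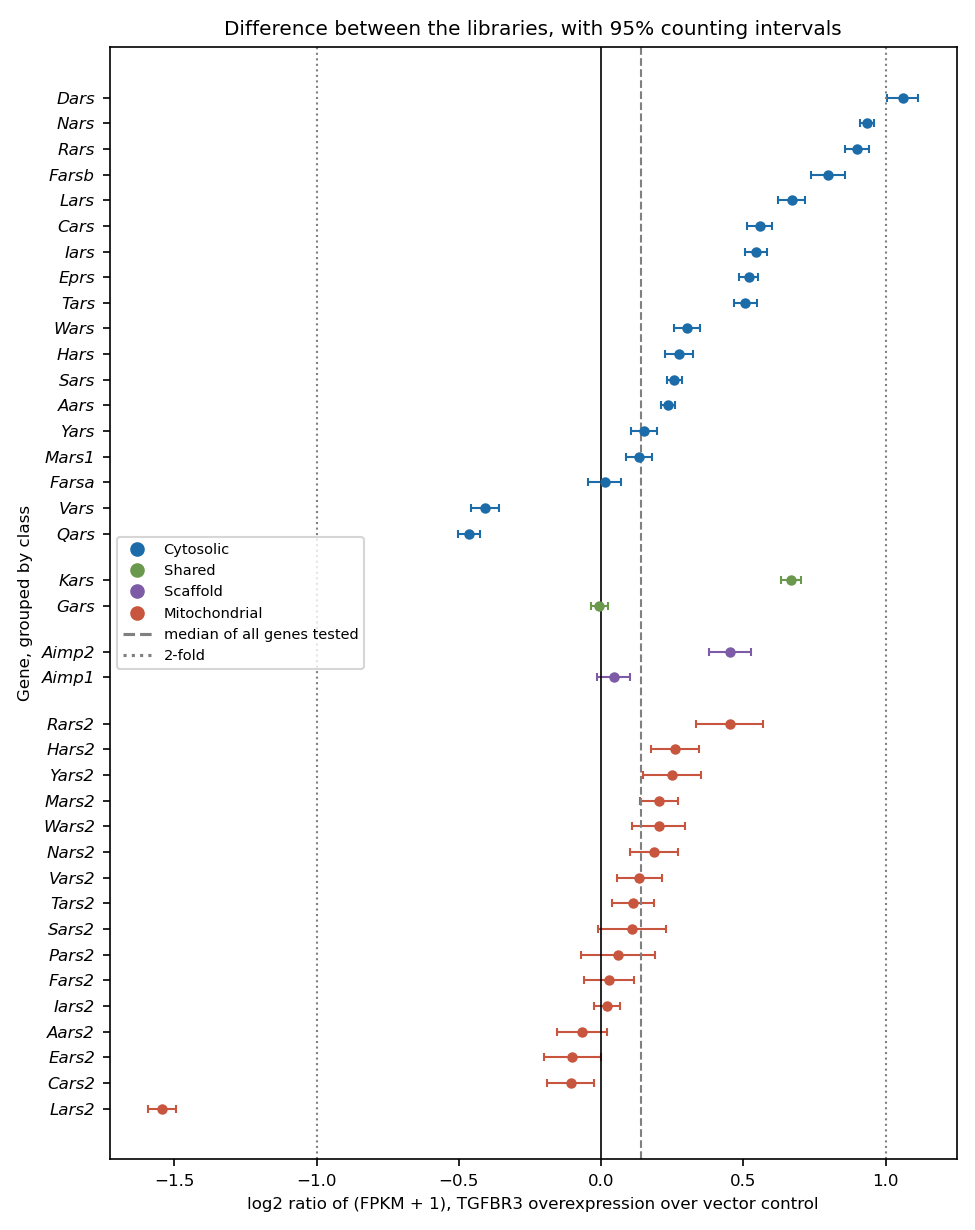
Log2 ratio of (FPKM + 1) of 38 members between the libraries (vector control as denominator), with 95% counting intervals, grouped by class; the dashed line is the median of all genes tested (0.14) and dotted lines mark 2-fold. Cytosolic enzymes spread from -0.46 for Qars to 1.06 for Dars, while mitochondrial enzymes other than Lars2 lay between -0.11 and 0.45.

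Lars2, the mitochondrial leucyl-tRNA synthetase, had the largest difference of all members. It had 3.64 and 12.5 FPKM, from 2743 and 12839 counts, and fell by 1.54 on the log2 scale (-1.59 to -1.496), a plain FPKM ratio of 0.291. Only 0.205% of all genes tested had a lower log2 ratio. The gene (ENSMUSG00000035202) lies at chr9:123366927-123462666 on the plus strand. In the vector control Lars2 was the most abundant mitochondrial enzyme, and in the library labelled TGFBR3 overexpression it was below Iars2, Hars2, Yars2, Vars2 and Rars2.

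Some annotated ribosomal RNA genes were also lower. The rRNA gene CT010467 (ENSMUSG00000106106) had 156067 and 961935 counts and a log2 ratio of -2.18, and the rRNA gene Gm23935 had 6525 and 39548 counts and a log2 ratio of -2.15. The mitochondrial rRNA genes mt-Rnr1 and mt-Rnr2 had log2 ratios of 0.09 and -0.40. Between the Lars2 transcripts and the 42 rRNA genes of the tables, 0 words of 31 bases were shared. These genes were taken by annotated type or by the name CT010467, so rRNA sequence held in entries of other types was not covered. The part of rRNA content in the Lars2 value was not tested.

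The other mitochondrial enzymes differed by less than 1.5-fold on the (FPKM + 1) scale. At their levels the pseudocount brings the log2 ratios nearer to 0. Rars2, the arginyl enzyme, had 3.72 and 2.45 FPKM, from 702 and 628 counts, and a log2 ratio of 0.45 (0.33 to 0.57), the highest of this class. Its plain FPKM ratio was 1.52, past 1.5-fold, and after removal of the GC trend its log2 ratio was 0.11. Hars2 and Yars2, the histidyl and tyrosyl enzymes, followed at 0.26 (4.94 and 3.96 FPKM) and 0.25 (4.54 and 3.66 FPKM). After removal of the GC trend, Hars2 was at 0.03 and Yars2 at -0.07. Wars2, Vars2, Tars2 and Sars2 lay between 0.11 and 0.20, and Pars2, Fars2 and Iars2 between 0.02 and 0.06. Below 0 were Aars2 at -0.07, Ears2 at -0.10 and Cars2 at -0.11, besides Lars2. Ears2, which charges mitochondrial tRNA for glutamate and, through an amidation step, for glutamine, had 1.34 and 1.51 FPKM, from 470 and 720 counts, with an interval from -0.20 to just below 0. Cars2, the cysteinyl enzyme, had 1.33 and 1.51 FPKM, from 660 and 1018 counts, with an interval of -0.19 to -0.02. For 6 of the 15 mitochondrial enzymes tested the interval included 0, so at this depth no difference could be detected.

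Enzymes for the same amino acid were then set side by side, which gave 18 pairs because Farsa and Farsb both pair with Fars2 and Eprs pairs with both Ears2 and Pars2. The pairs of Nars2 and Mars2, which were under the filter, are included. The log2 ratio was higher for the cytosolic gene in 14 pairs and lower in 4 pairs, with a median gap of 0.42. For leucine the gap was 2.21, from 0.67 for Lars to -1.54 for Lars2. The gap was 0.77 for Farsb and Fars2, and 0.75 for Nars and Nars2 (0.49 by the plain FPKM ratio). The valine pair ran the other way, with a gap of -0.54, from -0.41 for Vars to 0.13 for Vars2. The remaining pairs with a lower cytosolic ratio were Farsa, Mars1 and Yars with their partners, at gaps of -0.02, -0.07 and -0.10. The gap of Mars1 and Mars2 depended on the setting, at -0.36 by the plain FPKM ratio and 0.31 after removal of the GC trend. By the plain FPKM ratio the cytosolic gene was higher in 12 pairs, with Wars and Hars now below their partners, and once the GC trend was removed it was higher in 16 pairs.

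**Figure D3:**
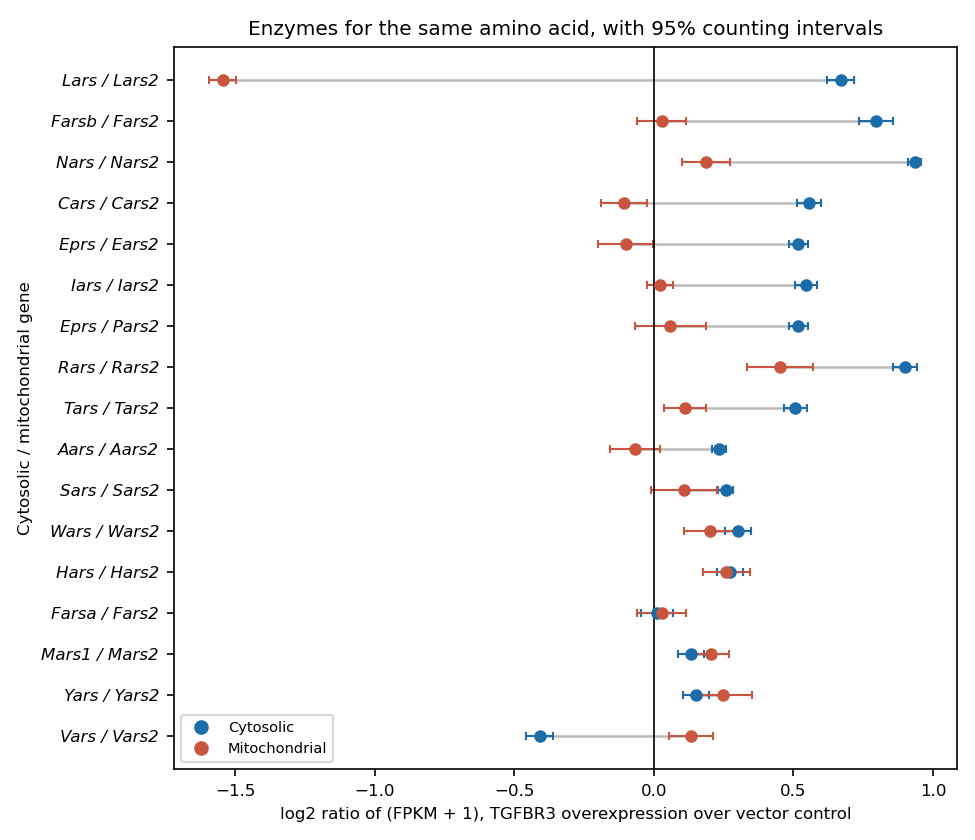
Log2 ratio of (FPKM + 1) between the libraries (vector control as denominator), for the cytosolic (blue) and mitochondrial (red) enzyme of 17 of the 18 pairs, with 95% counting intervals, ordered by the gap. The cytosolic point lies to the right in 13 pairs, by up to 2.21 for Lars and Lars2.

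The levels of the pairs differed widely within a library. In the vector control, the cytosolic FPKM was between 0.945 times (Lars over Lars2) and 94.5 times (Nars over Nars2) that of the mitochondrial partner. In the library labelled TGFBR3 overexpression the ratio ran from 2.87 times (Vars over Vars2) to 133 times (Nars over Nars2). Lars over Lars2 was 5.34 times there, so leucine was the only amino acid whose more abundant synthetase transcript changed compartment.

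The multisynthetase complex had a median log2 ratio of 0.53 over its 10 members in the list, with 9 above 0. Its 8 enzymes had a median of 0.61, beside 0.27 for the 12 cytosolic or shared enzymes outside it. Their median exon GC content was 47.2% and 50.6%, and after removal of the GC trend the medians were 0.39 and 0.21, a smaller gap. The complex held both the highest and the lowest cytosolic enzyme, Dars and Qars. Aimp2, the scaffold protein that holds lysyl-tRNA synthetase in the complex, had 24.2 and 17.4 FPKM, from 2712 and 2656 counts, and a log2 ratio of 0.45 (0.38 to 0.53). It lies at chr5:143902704-143909847 on the minus strand. Read on either strand, 29.5% of its 31-base words also occur in transcripts of other genes. Of its 1649 words, 28 matched as written and 483 as the reverse complement, 458 of the latter in Eif2ak1 on the opposite strand. Aimp1, the scaffold protein that is also released as a cytokine, had 8.79 and 8.49 FPKM, from 3351 and 4403 counts, and a log2 ratio of 0.04 (-0.01 to 0.10). Aimp1 lay below 0 when centred on the median gene (-0.081) and after removal of the GC trend (-0.39), so its direction depended on the scaling. The third scaffold gene, Eef1e1, which the search for members did not take in, had 7.56 and 3.50 FPKM and a log2 ratio of 0.93 (0.84 to 1.02).

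The cytosolic or shared genes were also divided by enzyme class. The 10 genes of class I, whose catalytic domain is a Rossmann fold, had a median log2 ratio of 0.41, and the 10 genes of class II, built around an antiparallel sheet, had a median of 0.39. Eprs, which holds an enzyme of each class, was counted in class I. Past 1.5-fold were 2 of the 10 genes of class I and 4 of the 10 of class II, beside 13.3% of all genes tested. With the GC trend removed, only Dars and Nars, both of class II, stayed past 1.5-fold. Both lower cytosolic enzymes, Vars and Qars, are of class I.

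The cytosolic and shared enzymes were also divided by whether they are known to be induced through ATF4. The 12 genes of that list had a median log2 ratio of 0.40, with 11 above 0, and the 8 other genes had a median of 0.47, with 6 above 0. Above the shift of 0.13 lay 11 of the 12 listed genes and 5 of the 8 others, where 51.3% of all genes tested did. Of the 4 highest cytosolic enzymes, 3 (Dars, Rars and Farsb) were outside the ATF4 list. After removal of the GC trend the 4 highest were Nars (0.70), Dars (0.61), Cars (0.57) and Farsb (0.56), of which Nars and Cars are listed. The part of ATF4 in the synthetase values was not tested. Atf4 itself had 62.7 and 61.8 FPKM and a log2 ratio of 0.02. Of 8 genes in the list of ATF4 and its targets, all had a log2 ratio above 0, where 63.1% of all genes tested did. Of the 8, 1 passed 2-fold, and the median was 0.31. Their median exon GC content was 56.4%, beside 49.2% for the cytosolic enzymes. After removal of the GC trend, the median was 0.37 for this list and 0.26 for the cytosolic enzymes, so the order depended on the setting. Ddit3, the stress-induced transcription factor also called CHOP, rose from 17.5 to 116 FPKM, a log2 ratio of 2.66. Asns, the asparagine synthetase, was at 0.43 and Phgdh, the first enzyme of serine synthesis, at 0.47. Apart from Ddit3, this list thus lay within the range of the cytosolic synthetases.

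Wars was compared with interferon-γ targets because it is known to be one. It had 29.2 and 23.5 FPKM, from 6829 and 7487 counts, and a log2 ratio of 0.30 (0.26 to 0.35). Of the 4 interferon-γ targets that passed the filter, 3 were at least 2-fold higher. Among these, Gbp2, a GTPase of cell-autonomous immunity, was at 2.65 and Cxcl9, a chemokine, at 5.76. Irf1, a transcription factor of the pathway, was under 2-fold at 0.71 (18.0 and 10.6 FPKM). The log2 ratio of Wars was smaller than those of these 3 genes and lay in the middle of the cytosolic synthetases. Ciita was under the filter, with 8 and 0 counts. The letters TTCNNNGAA of the interferon-γ activated sequence, on either strand, were in the RefSeq windows of 3 of 29 members (10.3%), Aars, Kars and Nars2, and of 9.55% of genes with a window.

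Other genes of tRNA charging were taken from a list of 14, of which 12 passed the filter. Their median log2 ratio was 0.18, with 9 above 0, where 63.1% of all genes tested were, and 0 past 2-fold. Eef1e1 was the highest, and its plain FPKM ratio of 2.16 was past 2-fold. After removal of the GC trend Eef1e1 was at 0.58. Gatc, a subunit of the mitochondrial amidotransferase that makes glutaminyl-tRNA, had 7.87 and 5.64 FPKM and a log2 ratio of 0.42. Xpot, the nuclear exporter of tRNA, had 13.6 and 11.8 FPKM and a log2 ratio of 0.18. Dtd1, which removes D-amino acids from tRNA, had 3.22 and 4.04 FPKM and was the lowest at -0.26. Apart from Eef1e1, the companions lay nearer to the median gene than the leading cytosolic enzymes.

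Exon GC content moved with the log2 ratio over all genes. In 20 bins of GC content, the median log2 ratio went from 0.45 in the bin around 39.1% GC to -0.25 in the bin around 60.7% GC. With this trend removed, the median was 0.26 over the cytosolic enzymes and -0.03 over the mitochondrial enzymes, and the gap between the classes was 0.29 instead of 0.34. Centred on the median gene, the class medians were 0.28 and -0.07. The cytosolic median was thus also the higher one with the trend removed, at a smaller size.

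**Figure D4:**
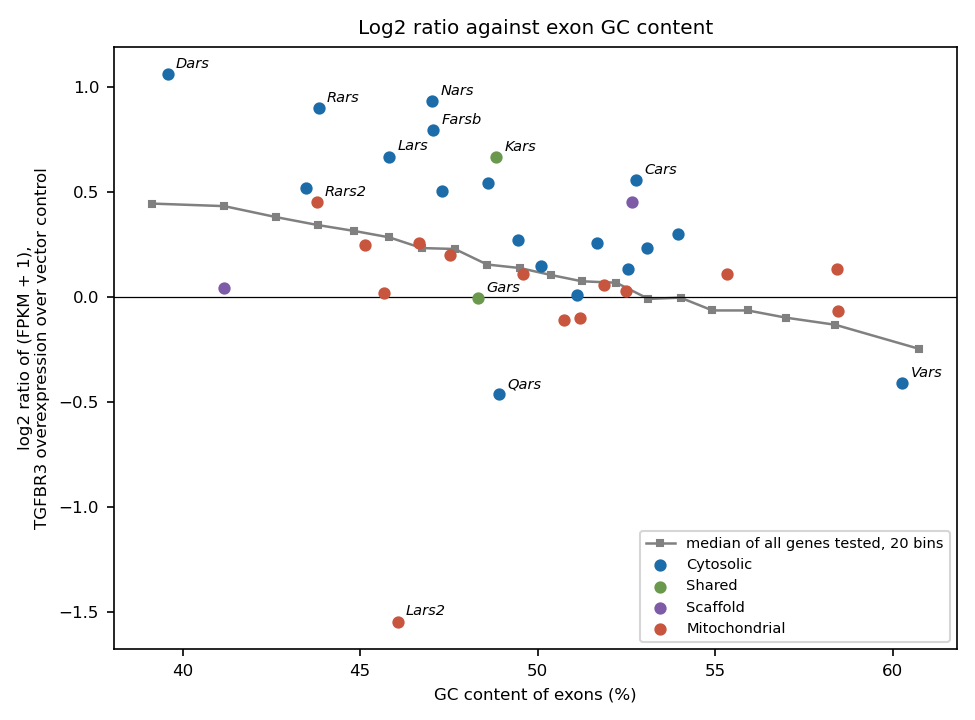
Log2 ratio of (FPKM + 1) between the libraries (vector control as denominator), against exon GC content for 36 of the 37 members tested, with grey squares for the median of all genes tested in each of 20 GC bins (0.45 at the low end, -0.25 at the high end). Rars, Nars, Farsb, Lars and Kars lie above the grey line, while Qars and Lars2 lie below it.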

How the data were processed

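RNA was sequenced as paired reads of 150 nt in 2 libraries. The tables that the authors deposited hold raw counts per gene beside FPKM values with 2 decimals. For these files the paper names STAR and FeatureCounts on mm10, whereas the submitters' processing notes name cutadapt 1.9, HISAT2 2.2.1 and StringTie 2.1.6. The annotation release is not given in the sources used here. Depth was 62321027 and 83779203 counts, and members had 310 to 31764 counts in a library. Libraries were stranded (KC-Digital Stranded mRNA kit in the paper, dUTP marking in the labels). Whether molecular identifiers were counted is not given in the sources used here, and without them reads are not independent molecules.

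The main measure was the log2 ratio with a pseudocount of 1 FPKM, a minimum mean FPKM of 1 and thresholds of 2-fold and 1.5-fold, computed with Python 3.11.15, pandas 2.3.3 and scipy 1.17.1 and tested on simulated data. Some genes and sequences are counted but not reported here singly. Count models need replicates and were not run. Coordinates, exon GC content (11207 genes tested) and 31-base words came from GENCODE M21 on mm10, and promoters from RefSeq. Full values were given for members past 1.5-fold, the 5 highest and 5 lowest, and the extremes of each class. Values singled out beyond this rule, such as those of Farsa, Wars and the rRNA genes, were chosen after they were seen. The members and lists were chosen with earlier results of these data known. Alternatives were other pseudocounts, CPM, centring, rescaling without the 50 highest genes, GC correction, no filter, and Gars and Kars placed in other classes. Exon length correction and the omission of Lars2 were chosen after seeing the data.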

Additional observations from a re-analysis of the deposited data

How the results depend on the processing

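No paired analysis was possible because each group had 1 library and the labels give no replicate numbers, and for the same reason no library could be left out. The cytosolic median log2 ratio of 0.40 was 0.28 when centred on the median gene, 0.26 after removal of the GC trend and 0.22 after removal of the exon length trend. The mitochondrial median of 0.06 was -0.067, -0.027 and -0.086 under these 3 settings, and 0.11 without a filter, 0.10 by the plain ratio and 0.095 with a pseudocount of 0.1. Centring shifts every gene by the same amount. The gap between the class medians was 0.34 and ranged from 0.29 to 0.34 under all alternatives run, 0.32 without Lars2 among them. The count of members at least 2-fold higher went from 1 to 0 under each of the 3 settings, since Dars was then at 0.93, 0.61 and 0.97, and to 6 at a threshold of 1.5-fold. Lars2 was at least 2-fold lower under all alternatives run. Of 105 alternative values for 15 members, 102 kept their sign and 3, all of Aimp1, did not. These 15 were the members given full values, most of them far from 0, so the count says little about members near 0. Some of the other members changed sign. Farsa went from 0.01 to -0.11 when centred, and Yars2 from 0.25 to -0.07 after removal of the GC trend. Counts of 310 to 1836 gave mitochondrial enzymes other than Lars2 and Iars2 wider intervals than the cytosolic enzymes. No spread between cultures was measured, so counting intervals understate the error of every difference.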

Other observations

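Genes that act after tRNA charging showed other patterns. All 5 cytosolic elongation factor genes in the list had a lower log2 ratio than 0, with a median of -0.27, and 0 passed 2-fold. Of all genes tested, 36.7% were below 0. Eef2, the translocase of the ribosome, had 810 and 1108 FPKM and a log2 ratio of -0.45. Eef1b2, a nucleotide exchange factor of eEF1A, had 134 and 205 FPKM and a log2 ratio of -0.61. Eef1a1, which brings charged tRNA to the ribosome, had 2492 and 2583 FPKM and a log2 ratio of -0.05. The medians of the cytosolic synthetases and of the factors that use their products thus lay on opposite sides of the median gene.

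The 9 mitochondrial translation factor genes had a median log2 ratio of 0.27, with 7 above 0, where 63.1% of all genes tested were, and 0 past 2-fold. Mtrf1, a release factor, had 2.03 and 0.94 FPKM and a log2 ratio of 0.64, which the pseudocount lowered from 1.11 by the plain ratio, and Mtif2, the initiation factor, had 4.92 and 2.86 FPKM and a log2 ratio of 0.62. Tufm, the mitochondrial elongation factor that carries charged tRNA, was the most abundant of them and had 37.5 and 48.7 FPKM and a log2 ratio of -0.37. The median of these factors was above that of the mitochondrial synthetases, 0.06, and no test of the difference was possible with 1 library per group.

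Exons of 16 of the 39 members overlap an exon of another gene on the opposite strand. Iars2 shares 2034 exon bases with Rab3gap2, which had 12.1 and 8.31 FPKM, and Hars and Hars2 share 195 exon bases with each other. Fars2 shares 501 exon bases with Nrn1, which had 29.5 and 17.0 FPKM. Cars2 shares 422 exon bases with Naxd, which had 9.61 and 11.1 FPKM. The part of these overlaps in the values was not tested. Aars shares 1326 exon bases on the same strand with Exosc6, which had 1 count in each library.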
